A study of Mus musculus with 12 samples.

Results

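The comparison asks which native DNA elements work better upstream of a Crx promoter (pCrx) and which work better upstream of a rhodopsin promoter (pRho). It covers the 1270 unmodified elements of a reporter library of 14987, 1 for each genomic region, and the other 13717 elements are altered versions of the same regions. An element was taken as unmodified where its name marked it as wild type (1253 regions) or, where a region had no such entry, where its sequence equalled the region's unmodified sequence (17 regions). The assay was CRE-seq, in which each 100 bp element drives a reporter transcript carrying barcodes of 13 bp, and each unmodified element was read through 6 or 7 barcodes. Both groups were wild-type CD1 mouse retinas taken at postnatal day 0, electroporated with 30 micrograms of the pRho or the pCrx library together with 30 micrograms of a CAG-GFP plasmid, and cultured as explants for 8 days. Each promoter had 3 replicates, and each replicate was a pool of 5 retinas with 1 cDNA and 1 DNA library. The cells that took up plasmid were not sorted, so a value is an average over all electroporated cells of the explant, and a change in the share of a cell type cannot be told apart from a change within cells. A plasmid assay gives no cell type markers to check the tissue with.

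Rhodopsin is the light-sensing pigment of rods, and its promoter is switched on as rods mature, through the homeodomain factor CRX and the rod-determining leucine zipper factor NRL. Crx encodes CRX itself, which is made in photoreceptor precursors and stays on in rods, cones and some bipolar cells. CRX and its relative OTX2 recognise so-called K50 homeodomain sites, whose usual form is TAATCC, while other homeodomain factors prefer Q50 sites such as TAATTA. An enhancer placed before a promoter acts through the factors bound to both, so the same element can give different output on different promoters.

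The elements with the widest gap between promoters are shown first, as a view of the sites they hold. Each line gives the 30 bases of the element that contain the most bases of listed motifs, 5′ to 3′ on the plus strand, with the listed matches in capitals and the mm9 position of the stretch. The first 6 lines are the elements with the largest gain on pCrx and the other 6 those with the largest gain on pRho, in order of size.
Higher on pCrx 1, chr11:88917461-88917490: TGCCAAcagcaggcagGGATTAgtgctggc
Higher on pCrx 2, chr5:102451191-102451220: TCAGCAgtctgtttcaTAATCCgcTAATCC
Higher on pCrx 3, chr12:117389185-117389214: agggtcaagtacaaccagttaagtGGATTA
Higher on pCrx 4, chr7:116147301-116147330: aggcctCCCTCCCTCgacatgatcAGCTTA
Higher on pCrx 5, chr19:29588072-29588101: gtgacaagccatattaacctctagACAAAG
Higher on pCrx 6, chr3:65415658-65415687: ggaccACAAAGATAAgcagtaatcAGATTA
Higher on pRho 1, chr7:133940777-133940806: CCCTCcctacctatTAATCCctttctccag
Higher on pRho 2, chr13:98005183-98005212: GAGGGcacacttgctttattTAATCCCTCc
Higher on pRho 3, chr7:128103869-128103898: TAATTGgaaaggacttacagtTAATCCtcc
Higher on pRho 4, chr1:132975449-132975478: GGATTAgcaagCAGCTGcctaaggaccccc
Higher on pRho 5, chr17:66819067-66819096: gaaGGATTAcagaggatcaTAATTAgcaca
Higher on pRho 6, chr11:78596916-78596945: GAGGGcaGAGGGgatgaaagccctggagag

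Stretches with a single K50 site occur in both sets. The second pCrx element holds a pair of TAATCC sites in the same orientation, beside TCAGCA, the reverse strand of the NRL motif TGCTGA. The stretch of the first pCrx element holds TAATCC on the reverse strand, and that of the fifth holds a SOX-type ACAAAG and no K50 site. In the pRho set the capitals of the first 5 stretches contain TAATCC on one strand or the other. That of the sixth holds only GAGGG, the reverse strand of the CTCF core CCCTC. All positions take the element as the central 100 bp of the named region of 200 bp.

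Activity was the log2 ratio of cDNA to DNA, where 0 is the typical element of the library on that promoter, not an empty promoter. A constant factor between the basal strengths of pCrx and pRho therefore cancels. Whether basal strength also limits the range of values was not tested. In replicates 1 to 3 the 5th percentile of activity was -2.13, -2.02 and -2.10 on pRho, and -1.47, -1.49 and -1.37 on pCrx. The 95th percentile was 1.49, 1.53 and 1.60 on pRho, and 1.84, 2.06 and 1.77 on pCrx. The median unmodified element had 1427 to 2352 reads a library, and log2 activity over the 1270 elements correlated at r = 0.982 to 0.986 between pRho replicates and 0.963 to 0.966 between pCrx replicates. Between the promoters r was 0.73, a description over elements that share libraries. Over the 1270 elements, 572 were higher on pCrx and 297 were higher on pRho at an adjusted p under 0.05 (edgeR quasi-likelihood test of the promoter by cDNA interaction, Benjamini-Hochberg adjustment over all 14987 elements). Among all elements 41.0% were called higher on pCrx and 27.4% higher on pRho, against 45.0% and 23.4% of the unmodified ones. The remaining 401 did not pass. The median difference, pCrx minus pRho, was 0.20 on the log2 scale, and 0.12 over all elements. Values ran from -2.17 to 3.50 with an SD over elements of 0.80, against a median standard error of 0.13 for a single element.

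**Figure D1:**
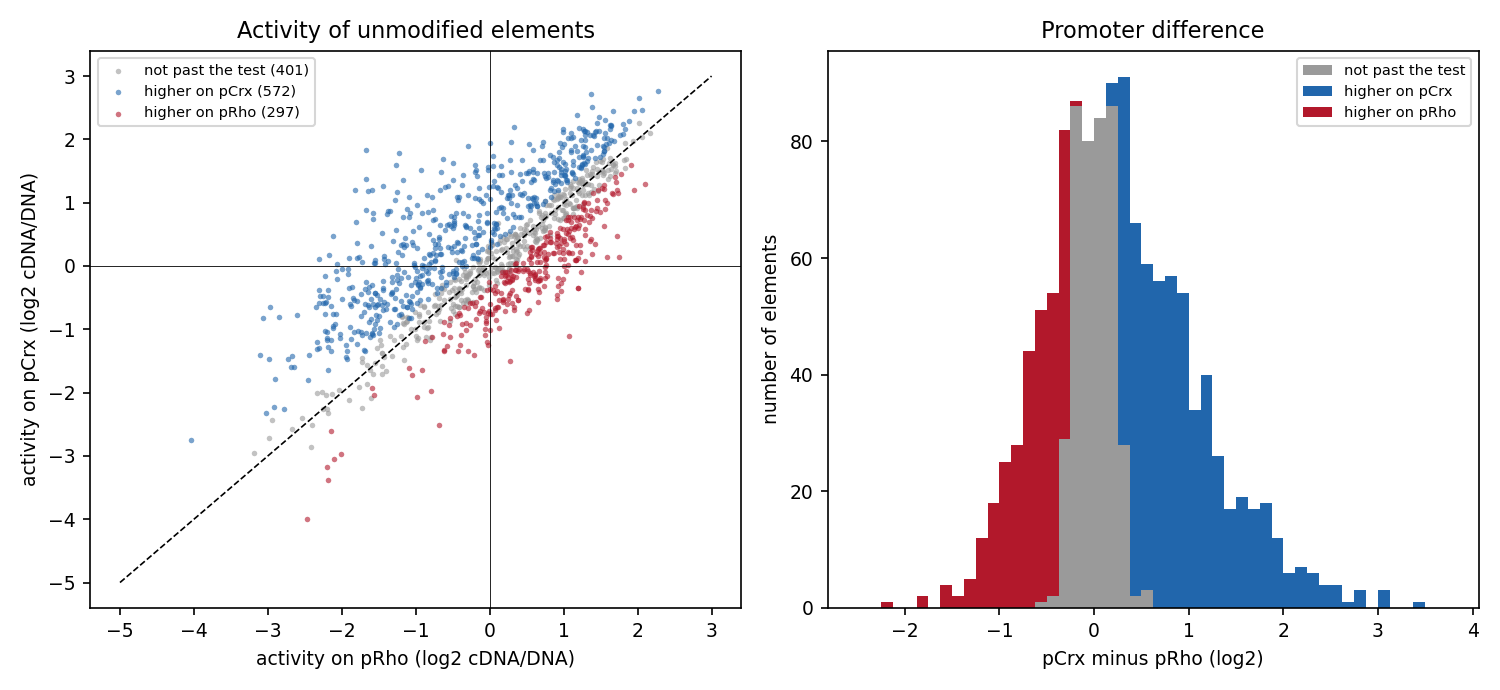
Left, log2 cDNA/DNA of each of the 1270 unmodified elements on pRho (x axis) and on pCrx (y axis), means of 3 replicates from the edgeR fit, coloured by the interaction test, with a dashed line of equal activity. Right, the number of elements by pCrx minus pRho (log2), stacked by the same calls; the right tail reaches 3.50 and the left tail -2.17.

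The zero point of this comparison depends on how libraries were scaled. Scaling by total counts in place of TMM (trimmed mean of M values) lowered the median over all elements from 0.12 to -0.02. The element with the largest difference went from 3.50 to 3.35 and that with the lowest from -2.17 to -2.32. These shifts were about as large as that of the median. The calls were split into 483 higher on pCrx and 398 higher on pRho. The share of calls that favoured pCrx was then 54.8% in place of 65.8%, and 54.8% with the authors' deposited log2 values, 55.1% with at least 500 DNA counts per library and 56.4% without pCrx replicate 1. Without that replicate the median over the unmodified elements fell from 0.20 to 0.09. Differences below about the size of this shift have no settled sign. Under the main analysis and all 16 alternatives, 367 elements were called higher on pCrx and 191 higher on pRho each time, of 1218 that every alternative measured. The matching share of the whole library was not counted.

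Large differences lay mostly on the pCrx side, as they did in the whole library. In the main analysis, with TMM, 218 elements were at least 1 log2 unit, or 2-fold, higher on pCrx (17.2%, and 15.1% of the library). On pRho 44 were (3.46%, and 5.29% of the library). A gain of at least 4-fold was seen for 35 elements on pCrx and for 1 on pRho. The library share at 4-fold was not counted, so these counts are not read as particular to unmodified elements. The distance from the median to the 95th percentile was 1.58, and from the 5th percentile to the median 1.09, and neither depends on the scaling. At the other end, 319 elements had a 95% interval of the difference wholly within 0.5 of 0. The matching share of the library was not counted for this either. Treating each barcode as 1 unit, 393 of 1266 elements were higher on pCrx and 214 higher on pRho, against 27.0% and 19.5% of 14912 elements in the library. The replicate values of the promoters did not overlap for 591 elements higher on pCrx (46.5%; 41.8% of the library) and 330 higher on pRho (26.0%; 29.0% of the library). Of these, 390 (26.6% of the library) and 208 (18.8% of the library) passed both tests in the same direction.

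The difference was set beside the call of each element on each promoter alone. On pRho 593 elements were above the typical element (41.8% of the library) and 513 below (45.0% of the library). On pCrx 644 were above (38.6% of the library) and 417 below (41.2% of the library). Elements above the typical one on both promoters formed the largest class among the unmodified, with 472 members (37.2%; 28.4% of the library), of which 182 were higher on pCrx, 109 higher on pRho and 181 not apart. Another 322 (25.4%) were below the typical element on both, the largest class of the library at 29.8%, and 156 of them were still higher on pCrx and 40 higher on pRho. Calls in opposite directions were made on both sides: 106 elements were above on pCrx and below on pRho (6.41% of the library), and 44 were above on pRho and below on pCrx (6.11% of the library). With total-count scaling these counts were 87 and 71. The first class had a median difference of 1.52 and the second of -0.91.

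The widest gaps belonged to elements that were weak on pRho and strong on pCrx. All 12 elements with the largest gain on pCrx were below 0 on pRho, at -2.11 to -1.17, and above 0 on pCrx, at 0.48 to 1.83. Every barcode measured for each of the 12 was higher on pCrx. The 12 in each direction were taken from elements past both tests, that with barcodes as units included, without overlap of replicates. The separation of their replicates thus follows from the choice, and the agreement of their barcodes largely does too. All 12 had 49% GC or less, and 6 of the 12 held TAATCC, against 63.7% of all unmodified elements.

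**Figure D2:**
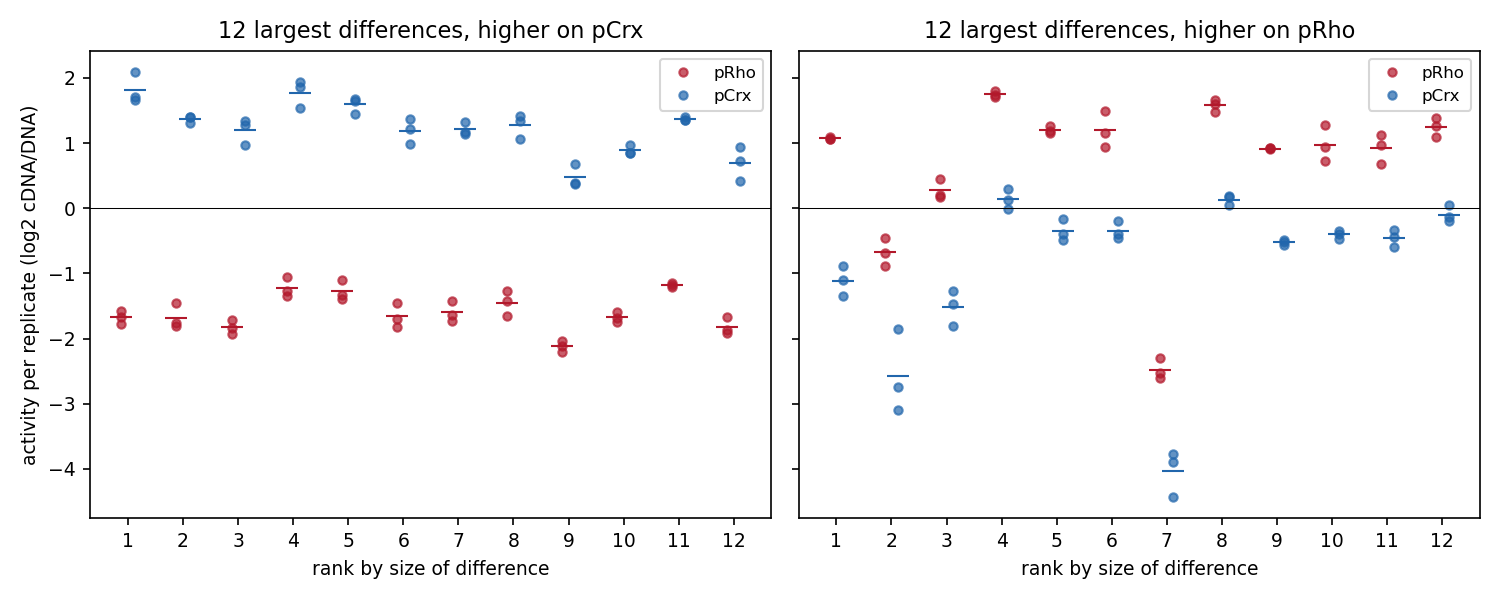
Log2 cDNA/DNA per replicate (points; the short bar is the mean of 3) for the 12 elements with the largest gain on pCrx (left) and on pRho (right), ordered by size of the difference. On the left every pRho value lies below 0 and every pCrx value above it; on the right the pRho values lie above the pCrx values at each rank, and ranks 2 and 7 are below 0 on both promoters.

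The element at chr11:88917445-88917544 read -1.77, -1.67 and -1.58 on pRho in replicates 1 to 3, and 1.71, 2.09 and 1.66 on pCrx. The groups were far apart, with all pRho values low and all pCrx values high. The difference was 3.50 ± 0.13 (SE, n = 3 replicates a promoter), or 11.3-fold (adjusted p = 1.78e-18, edgeR), and its 7 barcodes ranged from 2.86 to 3.90. This element holds 3 listed K50 sites. The element at chr5:102451137-102451236, with the paired TAATCC sites shown above, read -1.81, -1.46 and -1.77 on pRho, and 1.40, 1.40 and 1.30 on pCrx. Its groups did not overlap, and the gain was 3.04 ± 0.11 (SE), or 8.23-fold. The element at chr12:117389144-117389243 has a single listed K50 site and read -1.84, -1.92 and -1.72 on pRho, and 1.28, 1.34 and 0.97 on pCrx, a gain of 3.02 ± 0.12.

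Of the 12 elements, 1 held no listed K50 site. The element at chr19:29588019-29588118 holds no listed K50 site and read -1.39, -1.10 and -1.33 on pRho, and 1.45, 1.68 and 1.65 on pCrx. Its gain was 2.86 ± 0.14 (SE), and each of its 5 measured barcodes was higher on pCrx, by 2.11 to 3.40. The element at chr7:116147263-116147362 was the strongest of the 12 on pCrx after the first, with 1.85, 1.93 and 1.53 there and -1.27, -1.05 and -1.35 on pRho. Its groups were likewise apart. The element at chr17:8313817-8313916 was the weakest of the 12 on pRho, with -2.20, -2.03 and -2.11, and was only moderately above the typical element on pCrx, with 0.68, 0.39 and 0.37. The other 6 of the 12 gained 2.52 to 2.84 on pCrx.

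Gains on pRho were smaller, and most took another form. Of the 12 elements with the largest gain on pRho, 10 were above 0 on pRho and 10 were below 0 on pCrx, and 2 were below 0 on both. All 12 held TAATCC. The CTCF core CCCTC was in 7 of the 12, and in 6 of the 12 pCrx elements, so it did not set them apart. The median GC content was 54.5%, against 47% for the 12 pCrx elements. For 11 of the 12 every measured barcode was higher on pRho, and for the other, at chr3:51290891-51290990, 5 of 6 barcodes were.

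The element at chr7:133940756-133940855 was the clearest case, with 1.07, 1.09 and 1.06 on pRho, and -0.89, -1.10 and -1.35 on pCrx. All pRho values were high and all pCrx values low, and the difference was -2.17 ± 0.12 (SE, n = 3 replicates a promoter), or 4.51-fold in favour of pRho (adjusted p = 3.66e-15, edgeR). It is the 1 element whose gain on pRho passed 4-fold in the main analysis. The element at chr1:132975424-132975523, which carries CAGCTG beside its TAATCC, was the most active of the 12 on pRho, with 1.73, 1.80 and 1.71, and read 0.30, -0.01 and 0.13 on pCrx. It was thus strong on pRho and near the typical element on pCrx, with a difference of -1.61 ± 0.12. The element at chr13:98005161-98005260 was weak on both promoters, with -0.69, -0.46 and -0.88 on pRho and a scattered -3.10, -1.86 and -2.75 on pCrx. Its difference of -1.83 had an SE of 0.21, and its size depended on the method. It was -2.74 with barcodes as units and -2.85 without the barcode of highest cDNA to DNA ratio. Leaving out 1 pCrx replicate gave -1.71 to -2.24.

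The A- and T-rich element at chr3:51290891-51290990 stood apart from the other pRho elements. It has 32% GC, the lowest of the 1270, and 7 listed K50 sites, and was strongly below the typical element on both promoters. It read -2.60, -2.29 and -2.54 on pRho, and -4.42, -3.77 and -3.89 on pCrx. The values did not overlap, and the difference of -1.53 ± 0.16 (SE) favours pRho although the element is weak there. Its pCrx values were the lowest of the 1270 elements in every replicate. The 1 altered version of this region had a difference of -0.28, which did not pass. The other 8 of the 12 had differences of -1.78 to -1.34.

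Some active elements had no detectable difference between promoters at this scaling. For the 4 with the narrowest interval around 0 among elements above the typical one on both, the difference was between -0.01 and 0.02, and between -0.15 and -0.12 with total-count scaling. The most active, chr12:84785631-84785730, read 1.19, 1.30 and 1.31 on pRho, and 1.26, 1.39 and 1.21 on pCrx. The values interleave, and the 95% interval of the difference was -0.18 to 0.22. The element at chr11:118606137-118606236 read 0.63, 0.81 and 0.71 on pRho, and 0.67, 0.82 and 0.66 on pCrx, with an interval of -0.21 to 0.22. Among the 319 elements whose interval lay within 0.5 of 0, the median activity was 0.46 on pRho and 0.47 on pCrx.

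Few elements could be tied to a gene from their sequence. RefSeq promoter windows of the GRCm38.p6 build, 250 bases before to 50 after a gene's start, contained 9 of the 1270 elements whole, all in plus-strand orientation. Of these, 2 were called higher on pCrx, 2 higher on pRho and 5 did not pass. The element from the promoter of Ppef2, a phosphatase gene of photoreceptors (chr5:92685374-92685473 in mm9), read -0.45, -0.40 and -0.25 on pRho, and 1.18, 1.52 and 1.17 on pCrx. It was slightly below the typical element on pRho and high on pCrx, a gain of 1.66 ± 0.12 (SE; adjusted p = 2.67e-12, edgeR). The element from the promoter of Zfp385a, a zinc finger gene, was high on both, with 2.08, 1.81 and 2.43 on pRho, and 1.15, 1.69 and 1.05 on pCrx. Its difference was -0.79 ± 0.19. The element from the promoter of Casz1, a zinc finger transcription factor of the developing retina, was also high on both, and its difference of 0.26 ± 0.11 passed the test although its replicates overlapped; it no longer passed under 12 of 16 alternatives, and was 0.12 with total-count scaling. The element from the promoter of Dlg4, a synaptic scaffold gene, was low on both, at -1.73 on pRho and -2.24 on pCrx, and its difference of -0.51 ± 0.42 did not pass.

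Base composition separated the promoters across the whole range. Elements under 40% GC (63 elements) had a median difference of 0.55, and 63.5% of them were higher on pCrx against 17.5% higher on pRho. From 40 to under 45% (235 elements) the median difference was 0.47, and from 45 to under 50% (424 elements) it was 0.28. It then fell to 0.09 from 50 to under 55% (349 elements), to -0.08 from 55 to under 60% (155 elements) and to -0.07 at 60% or more (44 elements). In the last class 15.9% were higher on pCrx and 36.4% higher on pRho. From the lowest to the highest GC class, the median activity on pRho was -0.44, -0.09, -0.15, 0.23, 0.33 and 0.71, higher at the GC-rich end though not at every step. On pCrx it was 0.42, 0.36, 0.18, 0.13, 0.14 and 0.49, lower in the middle classes than at either end. Over all elements, activity per 10 points of GC rose by 0.38, 0.36 and 0.41 in the pRho replicates, and the slopes in the pCrx replicates were 0.01, 0.02 and -0.01. The slopes of the promoters did not overlap (exact permutation test over the 6 replicates, two-sided p = 0.1, the smallest that 3 against 3 allows). The number of CpG dinucleotides showed no such gradient, with medians of 0.30, 0.16, 0.18 and 0.16 for 0, 1, 2, and 3 or more.

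**Figure D3:**
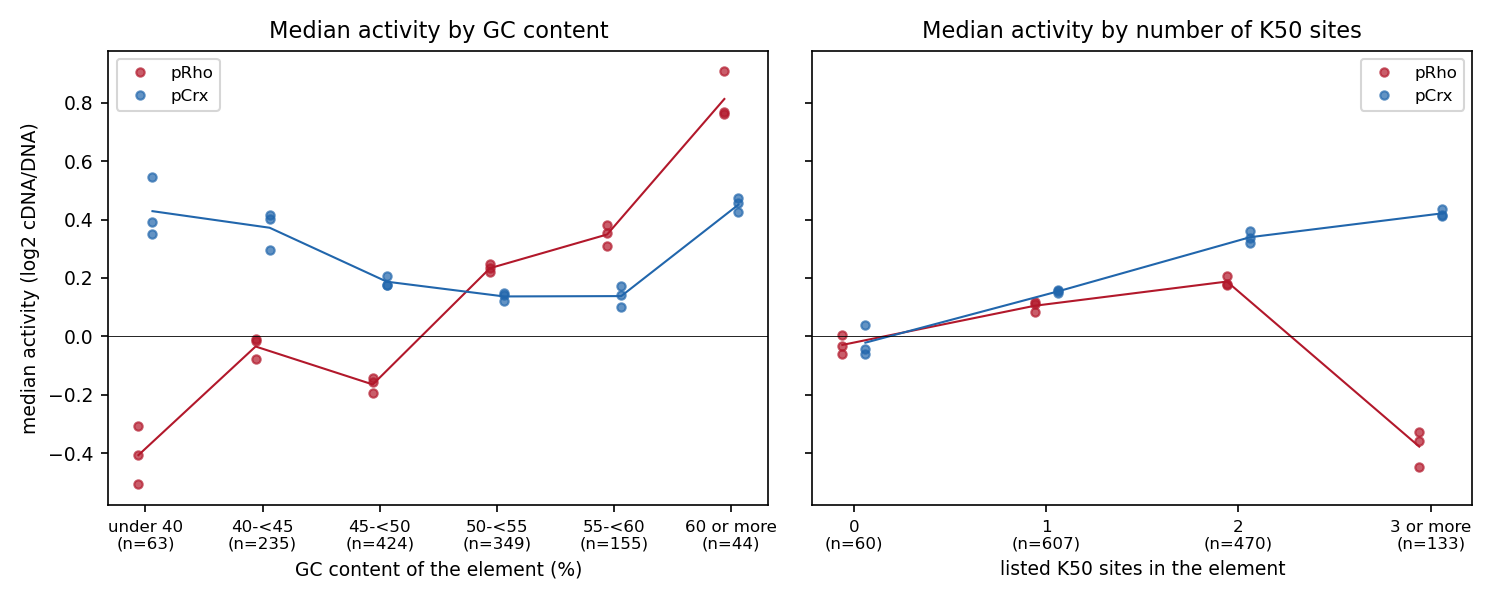
Median log2 cDNA/DNA of the unmodified elements in each replicate (points) and the mean over 3 replicates (lines), by GC content (left, percent) and by number of listed K50 sites (right), with the number of elements in each class. The pRho medians are lowest under 40% GC and highest at 60% or more, and the pCrx medians are lowest in the middle classes; with 3 or more K50 sites the pRho medians drop below 0 and the pCrx medians stay near 0.41 to 0.44.

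K50 sites related to the promoters differently once an element held several. On both strands together, TAATCC was held by 63.7% of the 1270 elements, TAATCT by 29.7%, TAAGCC by 24.1% and TAAGCT by 18.6%. With no site (60 elements) the median difference was 0.18, with 1 site (607 elements) 0.11, with 2 (470 elements) 0.25, and with 3 or more (133 elements) 0.54. In the last class 81 elements were higher on pCrx and 20 higher on pRho. On pCrx the median activity was 0.04, -0.06 and -0.04 in the 3 replicates with no site and 0.44, 0.41 and 0.41 with 3 or more. On pRho the medians were 0.18, 0.18 and 0.21 with 2 sites, and -0.36, -0.45 and -0.33 with 3 or more. The pCrx medians of the 3-or-more class were thus all above, and the pRho medians all below, those of elements with 2 sites. This did not hold on pCrx in the elements of up to 46% GC, which hold 73 of the 133: the median there was 0.14 with 3 or more sites and 0.33 with 2. As slopes over all elements, activity changed per K50 site by a mean of -0.11 on pRho and by -0.003, -0.010 and 0.006 in the pCrx replicates. A straight line describes neither promoter well. With 0, 1, 2, and 3 or more sites the median activity from the fit was -0.01, 0.11, 0.17 and -0.40 on pRho. On pCrx it was -0.01, 0.14, 0.35 and 0.45. Elements rich in K50 sites are also poorer in GC, with a median of 46% at 3 or more sites and 49% at 1 site. Within the elements above 51% GC, the median difference was -0.13 with at most 1 site and 0.18 with 3 or more. In those from above 46 to 51% it was 0.13 and 0.52, and in those of up to 46% it was 0.42 and 0.64. This split by GC was added after the data had been seen.

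Where an element held a single listed K50 site, the place of the site went with the difference as well. For a site starting at positions 67 to 95 of the element, counted from its first base, 70 of 132 elements were higher on pCrx and 24 higher on pRho. For positions 34 to 66 these were 108 and 97 of 311, and for positions 1 to 33 they were 63 and 46 of 164. Median activity on pCrx was 0.45, 0.50 and 0.51 in the 3 replicates for sites at 67 to 95, against 0.12, 0.13 and 0.11 for sites at 34 to 66. On pRho the corresponding medians were 0.09, 0.11 and 0.13, and 0.18, 0.20 and 0.17. Elements with late sites were thus above those with middle sites on pCrx in every replicate, and below them on pRho. Restricted to TAATCC, the medians of the difference were 0.26 at 67 to 95 (70 elements) and 0.02 at 34 to 66 (196 elements). The pRho order did not hold for TAATCC alone, where the pRho medians were 0.29, 0.25 and 0.24 for late and 0.24, 0.25 and 0.23 for middle sites. The strand of the site made a smaller difference, with medians of 0.14 on the plus strand and 0.01 on the minus strand. These classes were chosen after the data had been seen.

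The other motifs were compared as the median activity of elements with the motif minus that of elements without it, in each replicate. The list had 26 motifs, matched by exact letters on both strands, and 25 of them occurred in at least 10 elements. For 12 of the 25 the motif went with more activity, or less loss, on pRho than on pCrx in every replicate. For 5 it went with more activity, or less loss, on pCrx, and for 8 the replicates overlapped. The exact permutation p of the first 17 is 0.1, the smallest possible, so none can pass 0.05. Motifs overlap: the MAF-like TGCTGAC contains the NRL motif TGCTGA, and K50 and Q50 sites share TAAT.

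**Figure D4:**
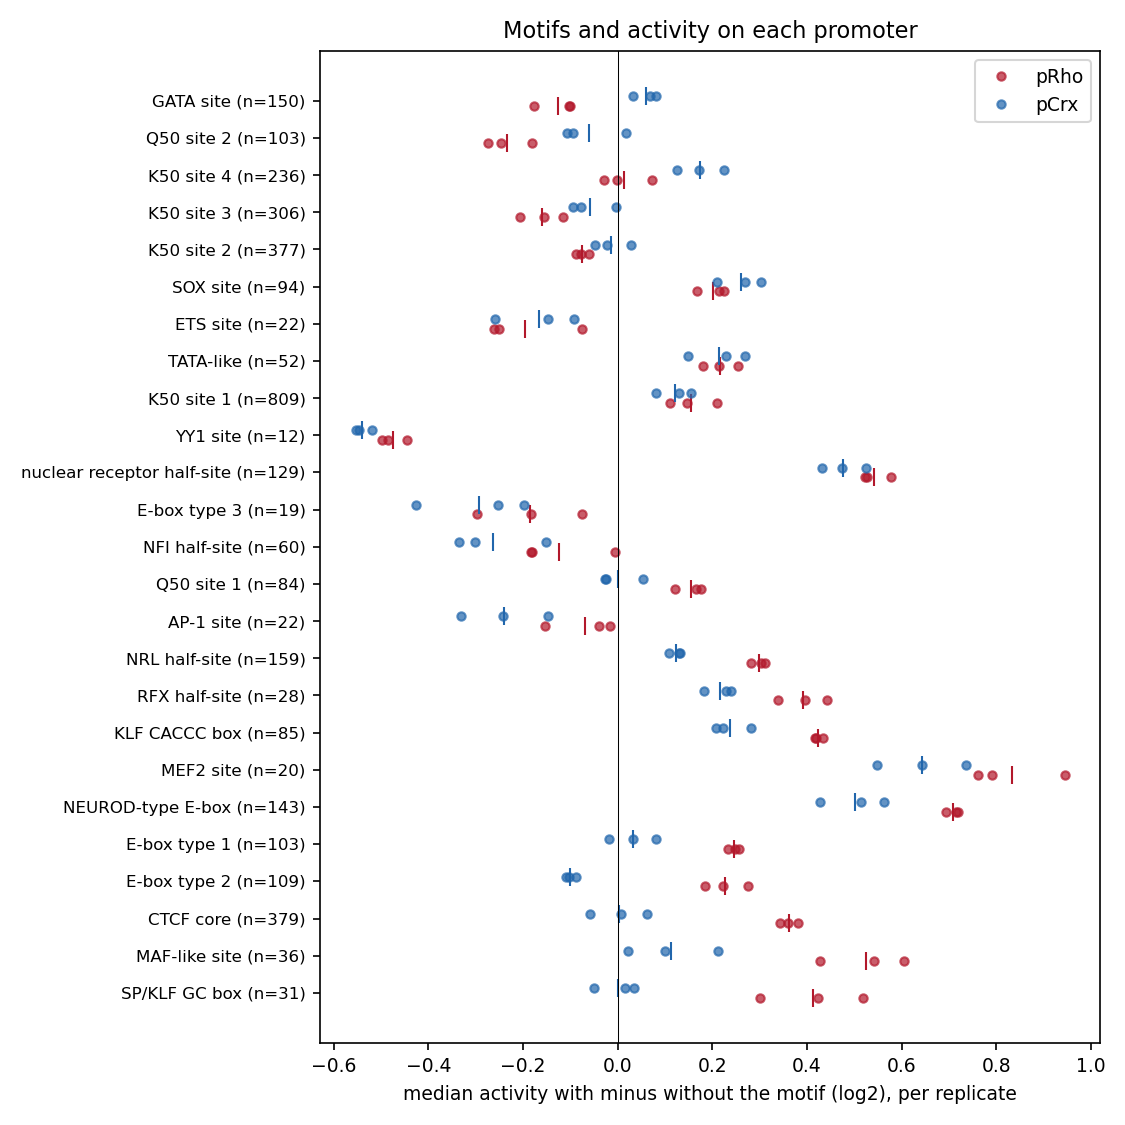
Median log2 activity of unmodified elements with a motif minus that of elements without it, per replicate (points) and as the mean of 3 (bars), for the 25 motifs found in at least 10 elements (n in brackets), sorted by pCrx minus pRho. K50 site 1 is TAATCC, K50 site 2 is TAATCT, K50 site 3 is TAAGCC and K50 site 4 is TAAGCT. Q50 site 1 is TAATTA and Q50 site 2 is TAATTG, while E-box type 1 is CAGCTG, type 2 is CACCTG and type 3 is CACGTG. At the bottom of the plot the pRho points of the CTCF core lie near 0.36 and its pCrx points near 0.

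GC-rich motifs were among those with the widest gap in favour of pRho. The CTCF core CCCTC, the letters at the centre of the site of the insulator protein CTCF, was in 379 elements (29.8%). Its presence went with 0.34, 0.36 and 0.38 more activity on pRho, and with 0.06, 0.01 and -0.06 on pCrx. Of these elements 35.1% were higher on pCrx and 31.1% higher on pRho, against 49.3% and 20.1% of the rest. They had a median GC content of 51% against 47%, and in the middle range of GC content (45 to 52%) the difference in median was -0.13 in place of -0.24. The GC box GGGCGG of SP and KLF factors (31 elements, 2.44%) went with 0.30, 0.52 and 0.42 on pRho and with -0.05, 0.03 and 0.02 on pCrx. Its difference in median was -0.18, but -0.07 in the middle range of GC content and -0.06 with the authors' deposited log2 values. The KLF box CCACCC (85 elements, 6.69%) had a median difference of -0.09, against 0.22 without it.

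Motifs of rod and neuronal factors went with higher median activity on both promoters, with the larger gap on pRho. The MAF-like TGCTGAC, bound by NRL and its relatives, was in 36 elements (2.83%) and went with 0.54, 0.43 and 0.61 on pRho, and with 0.02, 0.21 and 0.10 on pCrx. The shorter TGCTGA (159 elements, 12.5%) went with a mean of 0.30 on pRho and 0.12 on pCrx. The E-boxes CAGATG or CATATG of the neuronal factor NEUROD1 (143 elements, 11.3%) went with 0.72, 0.72 and 0.69 on pRho, and with 0.51, 0.56 and 0.43 on pCrx. The median of the promoter difference itself was nevertheless 0.19 with these E-boxes and 0.20 without, and 46.9% of the elements with them were higher on pCrx against 44.8% without. The MEF2 site (20 elements, 1.57%), bound by a factor family of muscle and neurons, went with means of 0.83 and 0.64. The E-box CACCTG (109 elements, 8.58%) split the promoters in sign, with 0.22, 0.18 and 0.28 on pRho, and -0.10, -0.09 and -0.11 on pCrx. The nuclear receptor motif AGGTCA (129 elements, 10.2%) went with similar gains, 0.54 on pRho and 0.48 on pCrx as means, and its replicates overlapped.

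Fewer motifs leaned to pCrx. TAAGCT, a weaker relative of the K50 consensus (236 elements, 18.6%), went with 0.17, 0.12 and 0.22 on pCrx, and with values between -0.03 and 0.07 on pRho. Of these elements 54.2% were higher on pCrx and 17.8% higher on pRho. The next 3 leaned to pCrx by a smaller loss in the mean. On pRho and pCrx the means were -0.16 and -0.06 for TAAGCC, -0.08 and -0.01 for TAATCT, and -0.23 and -0.06 for TAATTG. For TAATCT the difference in median was 0.04, but -0.03 in the middle range of GC content. The other Q50 site, TAATTA, leaned to pRho, with means of 0.15 on pRho and 0.0008 on pCrx. The consensus TAATCC did not separate the promoters, with means of 0.16 on pRho and 0.12 on pCrx and overlapping replicates. The GATA motif AGATAA (150 elements, 11.8%) went with 0.07, 0.03 and 0.08 on pCrx and with -0.10, -0.10 and -0.18 on pRho, but in the middle range of GC content its difference in median was -0.04 in place of 0.14.

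The 44 elements at least 2-fold higher on pRho and the 218 at least 2-fold higher on pCrx differed in these letters, as a description. CCCTC was in 59.1% of the former and 23.4% of the latter, beside 29.8% of all unmodified elements. TAATCC was in 86.4% and 61.0%, beside 63.7%. The median GC content was 53% and 47%, beside 49%. None of the 44, and none of the 218, held the MEF2 site, which was in 1.57% of all.

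Altered versions of the same regions carry other barcodes and offer a second reading of the promoter difference, although they share most of the sequence and were in the same libraries. At least 1 version was present for 1265 regions, with a median of 3 and at most 64 a region. The median difference of the versions had the sign of the unmodified element in 945 regions, or 74.7%, and r across regions was 0.63. For the 218 elements at least 2-fold higher on pCrx, 85.0% of 2664 versions were also called higher on pCrx and 3.08% higher on pRho. For the 44 at least 2-fold higher on pRho, 93.3% of 612 versions were called higher on pRho and 0.65% higher on pCrx. These shares pool versions, so regions with many versions weigh more. By region, the median of the versions had the sign of the unmodified element in 200 of the 218 and in 40 of the 44. Over all regions 40.6% of versions were higher on pCrx and 27.8% higher on pRho.

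Among the versions of the 12 leading pCrx elements, 290 of 301 were called higher on pCrx and none higher on pRho. Most of these come from 5 regions, with 284 versions, and in the other 7 regions, with 1 to 4 versions each, 14 of 17 were called. The 53 versions of chr11:88917445-88917544 were all called higher on pCrx, with a median of 2.49 and a range of 0.37 to 3.44. Its unmodified value of 3.50 was above every version. Among those of the 12 leading pRho elements, 281 of 285 were called higher on pRho, with 273 of the 285 from 5 regions. The 55 versions of chr11:78596905-78597004 were all called higher on pRho, with a median of -1.60 beside -1.54 unmodified. The elements were chosen for their own difference, so the smaller values of most versions are not read as an effect of the changes.

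The promoter difference remained in many regions when K50 sites were altered. In 361 regions a version had all the K50 sites of the design altered, and 302 of these versions held none of the listed K50 letters. Unmodified, 179 of the 361 were higher on pCrx and 68 higher on pRho, and with the sites altered 187 and 51 were. The median difference was 0.28 unmodified and 0.35 with the sites altered, with r = 0.36 across regions. Of the 73 regions that were at least 2-fold higher on pCrx unmodified, 55 were still called higher on pCrx with the sites altered. The median over the 73 was 0.69 in place of 1.42. Of the 13 that were at least 2-fold higher on pRho, 7 were still called so, with a median of -0.32 in place of -1.18. Both sets were chosen for their unmodified difference, so the smaller values are not read as an effect of altering the sites. Over versions of all kinds, the median of the region medians was 0.90 beside 1.45 unmodified for the 218 elements at least 2-fold higher on pCrx. For the 44 at least 2-fold higher on pRho it was -0.90 beside -1.19. The element at chr5:102451137-102451236 kept a difference of 1.93 when its K50 sites were altered, and chr7:133940756-133940855 one of -0.92.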

How the data were processed

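The deposited counts are raw reads of each barcode in 12 libraries. The authors' log2 values of the cDNA to DNA ratio, deposited per element, served as an alternative for the 1230 unmodified elements listed. The build, mm9, is per the submitters' processing notes; aligner and counter are not given in the sources used here. Barcode counts were summed per element; totals were 24726849 to 36500857 reads a library, and the lowest unmodified element had 21. All 14987 elements passed the minimum of 10 DNA counts in each DNA library.

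Activity and the promoter difference were tested in 1 edgeR 4.0.16 fit (R 4.3.3, TMM, quasi-likelihood) of all 12 libraries in 4 groups, and the script was checked on simulated data. DESeq2 1.42.0 and limma 3.58.1 were alternatives. Barcodes as units needed 10 DNA counts in each DNA library, at least 3 barcodes, and used a pseudocount of 0.5. Elements named were the 12 largest in each direction past both tests without overlap of replicates, the 5 most opposite in each direction, and the 4 active ones with the interval closest to 0. The Ppef2, Zfp385a, Casz1 and Dlg4 promoters were named after their values were seen. Members, motifs and rules were chosen with earlier results of these data known. Replicate numbers pair the DNA and the cDNA of a pool of retinas, per the labels; their deviations correlated at -0.04 to 0.05. PCR reads are not independent molecules, and p-values cover the spread between pools only.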

Additional observations from a re-analysis of the deposited data

Results flagged for a closer look

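The 10 elements here were chosen for calls in opposite directions on the promoters, so the opposite direction is not a separate result. Every replicate was above the typical element on one promoter and below it on the other. The interaction test passed for each, as it did for all 106 and all 44 elements with opposite calls. Above on pCrx and below on pRho, the differences were 3.50 at chr11:88917445-88917544, 3.04 at chr5:102451137-102451236, 2.71 at chr17:27570392-27570491, 2.86 at chr19:29588019-29588118 and 3.00 at chr7:116147263-116147362. The element at chr17:27570392-27570491, not described above, read -1.65, -1.42 and -1.27 on pRho, and 1.07, 1.34 and 1.42 on pCrx.

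Above on pRho and below on pCrx, the differences were -2.17 at chr7:133940756-133940855, -1.22 at chr3:55155549-55155648, -1.23 at chr11:75439388-75439487, -1.43 at chr1:134478670-134478769 and -1.25 at chr9:43884890-43884989. The element at chr1:134478670-134478769 was the most even over replicates, with 0.92, 0.92 and 0.91 on pRho, and -0.51, -0.56 and -0.49 on pCrx. At chr9:43884890-43884989 the pCrx values were spread more widely, at -0.41, -0.73 and -1.12. In chr3:55155549-55155648, 1 of 7 barcodes was higher on pCrx.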

How the results depend on the processing

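The 27 elements named for a difference kept its direction and side of the threshold in all 429 values from the alternatives that measured them. Those named as the largest differences had to pass the barcode test, which is among these alternatives, so that part was fixed by the choice. The 4 named for a difference near 0 did not pass under any, and their sign changed in 25 of 64 values, with a range of -0.24 to 0.06. The Ppef2 element kept its call in 15 of 15 values, Zfp385a in 13 of 14, Dlg4 stayed uncalled in 12 of 13 and Casz1 kept its call in 4 of 16. The median difference of 0.20 moved by more than the spread between pCrx replicates under 8 alternatives: it was 0.0549 with total-count scaling, 0.13 with DESeq2 size factors in edgeR and with DESeq2, 0.0704 with the deposited values, 0.0625 with at least 500 DNA counts, 0.14 with barcodes as units and 0.0761 without the barcode of highest ratio, and leaving out 1 replicate gave 0.0902 (without pCrx replicate 1) to 0.21. The count higher on pCrx ranged from 474 to 559 and that higher on pRho from 264 to 366 when 1 replicate was left out. With the pool as a replicate block, 568 were higher on pCrx and 297 higher on pRho, and the pairing changed no other count by over 1.5 times. Total-count scaling raised the elements above on pRho and below on pCrx from 44 to 71. The gap between elements with 3 or more and at most 1 K50 site stayed at 0.40 to 0.48 and that between under 45% and at least 55% GC at 0.53 to 0.57. Of 261 motif and composition values, 28 moved by more than the replicate spread, and the cause was not tested. Versions with a single changed base kept the sign in 75.4% of regions.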
